A study of Mus musculus with 8 samples.

Results

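Heat shock protein and chaperone genes were followed in mouse embryonic fibroblasts (MEFs) that lacked or retained the long noncoding RNA Neat1. The genes were taken by symbol: the heat shock protein families Hspa, Hspb, Hspd, Hspe, Hsph and Hsp90, the J proteins Dnaja, Dnajb and Dnajc, the chaperonin genes Cct2 to Cct8 with Tcp1, and the heat shock factor Hsf1. This gave 83 of 23420 gene symbols, of which 74 passed the count filter among 13316 symbols tested. Total RNA was sequenced from 4 Neat1 null (Neat1-/-) and 4 wild-type libraries, and the series was made to find genes expressed differently between these genotypes. Both groups had a C57BL6/N background and both expressed the adenoviral oncoprotein E1A and the activated Ras HRasV12, so each genotype was seen in transformed cells only. The labels give neither the embryos or cultures behind the libraries nor the way the oncogenes were delivered, and a p-value here measures the spread between these libraries, which may be technical. In bulk RNA of this kind, fewer cells of a type and less RNA per cell cannot be told apart. No library was heated or otherwise stressed according to the labels, so inducibility refers to what the genes are known for and not to a treatment of these cells.

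Chaperones bind unfolded or partly folded proteins and help them fold, assemble, cross membranes or reach the proteasome. Hsp70 proteins work by cycles of ATP hydrolysis that J proteins start and exchange factors such as Hsp110 end, Hsp90 proteins mature kinases and steroid receptors, small heat shock proteins hold unfolding proteins without ATP, and the ring-shaped chaperonins TRiC (cytosol) and Hsp60 (mitochondria) fold proteins inside a chamber. Heat and other proteotoxic stress raise many cytosolic and mitochondrial chaperones through Hsf1, which binds heat shock elements in their promoters, while unfolded protein in the endoplasmic reticulum (ER) raises the ER chaperones through factors such as Atf6 that act at the ER stress response element.

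Promoter letters of a few defining genes of these inducibility classes are shown, from RefSeq promoter windows on GRCm38.p6 (250 bases before to 50 bases after the annotated start), 5′ to 3′ on the gene's strand with the motif in capitals. The heat shock element was searched as a pair of units, GAANNTTC or TTCNNGAA, and as a run of 3 units on either strand, GAA and TTC alternating with any 2 bases between them, which contains the pair. Heat shock elements of the stress-inducible Hsp70 genes Hspa1a and Hspa1b, of the small heat shock protein gene Hspb1 and of the mitochondrial co-chaperonin gene Hspe1 were these:
Hspa1a (chr17:34972238-34972275, minus strand): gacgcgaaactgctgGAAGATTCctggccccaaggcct
Hspa1b (chr17:34959320-34959357, minus strand): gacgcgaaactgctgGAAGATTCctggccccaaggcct
Hspb1 (chr5:135887787-135887844, plus strand): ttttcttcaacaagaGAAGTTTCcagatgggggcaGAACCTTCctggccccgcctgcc
Hspe1 (chr1:55088054-55088081, plus strand): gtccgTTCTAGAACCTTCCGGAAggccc
The Hspa1a and Hspa1b stretches have the same letters, and over the 250 bases before the start these neighbouring genes were identical at 247 bases. The ER stress response element was searched on both strands as CCAAT, any 9 bases and CCACG. It is shown for Hspa5 (BiP), the Hsp70 protein of the ER, for Hsp90b1 (Grp94), its Hsp90 protein, and for the J protein gene Dnajc3:
Hspa5 (chr2:34772020-34772048, plus strand): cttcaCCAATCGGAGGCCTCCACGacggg
Hsp90b1 (chr10:86705518-86705671, minus strand): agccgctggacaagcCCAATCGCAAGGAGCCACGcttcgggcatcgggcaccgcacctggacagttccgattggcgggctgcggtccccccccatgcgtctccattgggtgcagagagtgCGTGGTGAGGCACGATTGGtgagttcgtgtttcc
Dnajc3 (chr14:118937812-118937860, plus strand): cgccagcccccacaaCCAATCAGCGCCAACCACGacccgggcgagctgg
Of the 83 genes, 67 had a promoter window in the table used. The pair of heat shock units was present in 20 of these 67 and in 17% of all 27025 genes with a window. Among the genes listed as heat-inducible it was present in 9 of 11 (Dnaja1, Dnajb4, Hspa1a, Hspa1b, Hspb1, Hspb8, Hspd1, Hspe1 and Hsph1), and in the ER list in 1 of 11. It was also present in 4 of 6 small heat shock protein genes, 4 of 9 TRiC genes and 3 of 12 constitutive cytosolic genes. The run of 3 units was present in 4 members (Dnajb6, Hspd1, Hspe1 and Hsph1) and in 0.662% of all genes. The ER stress response element was present in 3 members, the 3 printed here, and in 0.137% of all genes. A match describes these letters only. Hspe1 and Hspd1 lie head to head. An Hspd1 window (chr1:55087883-55088182) shares 285 of 300 bases with that of Hspe1, so these windows hold the same heat shock element. Another Hspd1 window, chr1:55088194-55088493, has 0 matches of the pair or the run. A gene was counted where any of its windows held a match.

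Counts assigned to genes ranged from 19651035 to 38950207 in Neat1 null and from 31651625 to 37069334 in wild-type libraries. Neat1 itself had 6.12 to 11.3 CPM (counts per 1e+06, with TMM factors) in Neat1 null and 138 to 1319.6 CPM in wild-type libraries, as the genotype labels say. Several measures moved with genotype or with single libraries. Ribosomal protein genes took 8.42 to 25.4% of counts in Neat1 null and 5.99 to 7.05% in wild-type libraries, highest in Neat1 null library 1. The slope of a library's deviation in log2 CPM on log2 transcript length ran from -0.567 to -0.00867 in Neat1 null and from 0.164 to 0.305 in wild-type libraries, so short transcripts stood relatively high in Neat1 null libraries. TMM factors were 0.567 to 1.05 in Neat1 null and 1.08 to 1.33 in wild-type libraries. Xist and Y-linked transcripts marked 3 Neat1 null libraries as male and 1, library 3, as female, against 4 female wild-type libraries. The 10 fibroblast markers summed to 2591 to 4034 CPM in Neat1 null and 1828 to 3402 CPM in wild-type libraries, mostly Vim and Fn1, with Col1a1 low at 2.50 ± 2.17 CPM in Neat1 null and 5.47 ± 4.65 CPM in wild-type libraries. Of these 10, Pdgfra was called lower (7.504 ± 2.91 CPM in Neat1 null and 89.95 ± 56.96 CPM in wild-type libraries, log2 fold change -3.59, edgeR adjusted p = 0.00806) and S100a4 higher (9.90 ± 12.8 CPM in Neat1 null and 2.32 ± 0.215 CPM in wild-type libraries, log2 fold change 2.08, edgeR adjusted p = 0.0473). The 6 epithelial markers summed to 249 to 3181 CPM in Neat1 null and 194 to 633 CPM in wild-type libraries, mostly Krt18, with the highest sum in Neat1 null library 1 and Krt14 at 0. The 5 blood cell markers summed to 4.13 to 18.7 CPM in Neat1 null and 9.31 to 102 CPM in wild-type libraries, nearly all Cd68, which was called lower (log2 fold change -2.47, edgeR adjusted p = 0.0239), with Ptprc and Hba-a1 at 0. The 6 neural markers summed to 8.98 to 28.2 CPM in Neat1 null and 29.2 to 56.7 CPM in wild-type libraries without overlap, mostly Map2, which was called lower (log2 fold change -1.39, edgeR adjusted p = 0.0439). The 5 endothelial markers summed to 0.359 to 2.57 CPM in Neat1 null and 1.59 to 9.92 CPM in wild-type libraries. The part of these measures in the chaperone results was not tested, apart from the length and GC correction given at the end.

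The called rises lay mostly among TRiC and mitochondrial chaperone transcripts, with 3 genes in each list, and the ER chaperones had a median log2 fold change near that of all genes. Of the 74 tested members, 8 rose and 4 fell in Neat1 null libraries (edgeR quasi-likelihood test, adjusted p under 0.05 over all genes), that is 10.8% and 5.41% of them. Of all genes tested, 9.97% were called higher and 7.72% lower, so the share of chaperone genes called was near the background. The genes that rose were Cct3, Cct5 and Cct7 of TRiC, Dnajc15, Hspe1 and Dnajc11 of mitochondria, and the J protein genes Dnajc17 and Dnajb3. The genes that fell were Dnajc6, Hspa12a, Hspa4l and Dnajb4. The groups did not overlap for 11 members with higher and 4 with lower Neat1 null values, against 11.7% and 11% of all genes. Log2 fold changes, Neat1 null over wild-type, were positive for 49 and negative for 25 of the tested members, with a median of 0.27 beside -0.06 for all genes. These counts and medians move with the scaling. With library sizes alone 2 members were called higher and 7 lower (2.92% and 16.1% of all genes), and with upper-quartile factors 6 higher and 5 lower (7.78% and 10.7% of all genes). With library sizes alone the median of all genes was -0.59 and that of the members -0.24, and with upper-quartile factors the median of all genes was -0.24. Medians are therefore also given as the difference from all genes, which for the members was 0.33 and ran from 0.23 to 0.52 over 19 alternative fits.

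**Figure D1:**
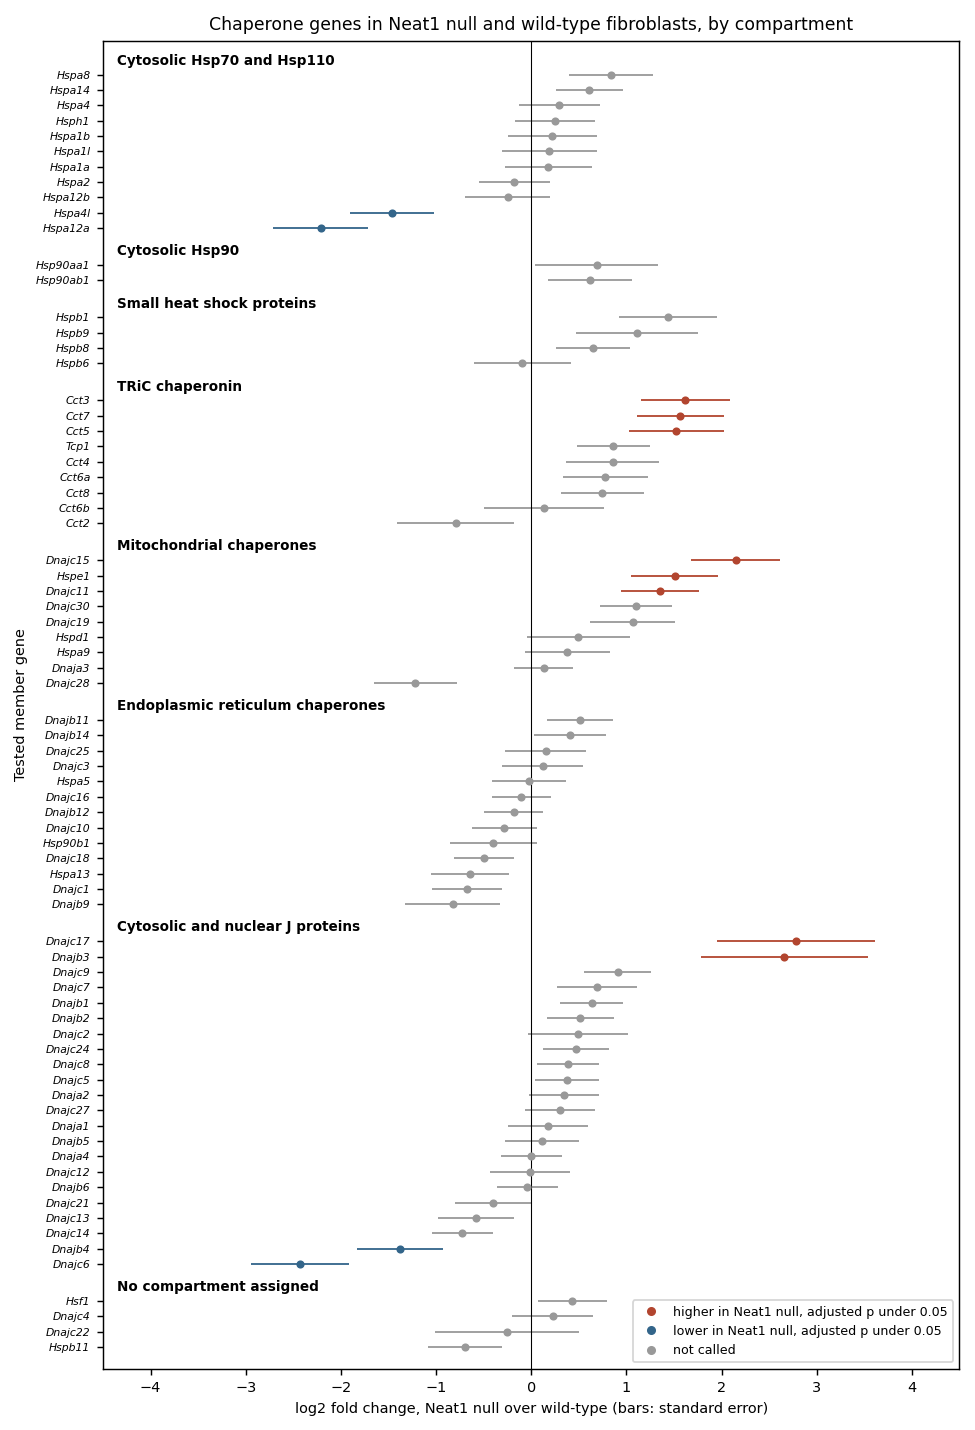
Log2 fold change of each tested chaperone gene, Neat1 null over wild-type (horizontal axis, TMM scaling), with standard errors as bars and genes grouped by compartment down the page; red and blue mark genes called higher and lower at an adjusted p under 0.05. TRiC and mitochondrial genes lie mostly to the right of 0, with 3 called in each list, whereas the 13 ER genes lie on both sides with 0 called.

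By level, the 4 most abundant chaperone transcripts were the same genes in both genotypes (Hsp90ab1, Hspa8, Cct5 and Cct2), while ranks below these differed. Per length, as TPM (transcripts per 1e+06, from the longest coding transcript), Hsp90ab1, the constitutive cytosolic Hsp90, led with a mean of 2413 TPM in Neat1 null and 2800.1 TPM in wild-type libraries. Hspa8, the constitutive Hsp70 (Hsc70), had 1901 TPM in Neat1 null and 1878 TPM in wild-type libraries. Cct5 had 1077 TPM in Neat1 null and 815 TPM in wild-type libraries. Cct2 had 786 TPM in Neat1 null and 2331 TPM in wild-type libraries, with 6101 TPM in wild-type library 1. Hspa5 had 321 TPM in Neat1 null and 547 TPM in wild-type libraries, at ranks 14 and 9. Hsp90b1 ranked 16 in Neat1 null and 5 in wild-type libraries. Hspe1 and Cct3 ranked 6 and 7 in Neat1 null and 13 and 15 in wild-type libraries. The stress-inducible Hspa1a and Hspa1b were far lower, at 3.25 TPM in Neat1 null and 5.02 TPM in wild-type libraries and at 9.66 TPM in Neat1 null and 14.6 TPM in wild-type libraries. In CPM, 27 members in Neat1 null and 23 in wild-type libraries averaged at least 100, and 12 members in each group averaged under 1. Together the 83 genes took 1.72 ± 0.393% of gene counts in Neat1 null and 1.69 ± 0.461% in wild-type libraries (SD, n = 4 each). After TMM scaling their sum was 21216 ± 5667 CPM in Neat1 null and 14101 ± 5359 CPM in wild-type libraries, and the groups overlapped. In TPM the order of the means was the other way round, with 13590.1 in Neat1 null and 16697 in wild-type libraries. Wild-type library 1 had 24757 TPM, against 13522 to 14619 TPM in the other wild-type libraries. The direction of the summed level thus depended on the scale.

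TRiC, also called CCT, is the cytosolic chaperonin that folds actin and tubulin, and its ring is built from the products of Tcp1 and Cct2 to Cct8. Of its 9 tested genes 3 rose and 0 fell in Neat1 null libraries. Cct3 (chromosome 3, 88297116 to 88321767, plus strand, GRCm38) had 1852, 811, 1028 and 817 CPM in Neat1 null libraries 1 to 4, against 558, 456, 212 and 239 CPM in wild-type libraries 1 to 4. Each Neat1 null library was above each wild-type library, with a log2 fold change of 1.62 (SE 0.465, edgeR adjusted p = 0.0304). Cct7 (chromosome 6, 85451514 to 85468475, plus strand) had 2645, 1196, 2304 and 1012 CPM in the Neat1 null libraries, against 839, 645, 445 and 484 CPM in the wild-type libraries. Its groups did not overlap either, and its log2 fold change was 1.57 (SE 0.460, edgeR adjusted p = 0.0325). Cct5 (chromosome 15, 31590800 to 31601804, minus strand) had 2825, 780.3, 871 and 804 CPM in the Neat1 null libraries, against 643, 454, 361 and 381 CPM in the wild-type libraries. Library 1 stood well above the other Neat1 null libraries, and the log2 fold change was 1.52 (SE 0.499, edgeR adjusted p = 0.0471). Without Neat1 null library 1 the log2 fold change of Cct5 was 0.84.

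The other ring genes did not pass the test. Tcp1 had 624, 578, 838 and 818 CPM in the Neat1 null libraries, against 575, 338, 332 and 325 CPM in the wild-type libraries, with no overlap between the groups and a log2 fold change of 0.86 (SE 0.381, edgeR adjusted p = 0.118). Cct4, Cct6a and Cct8 had log2 fold changes of 0.86, 0.78 and 0.75 (adjusted p = 0.215, 0.214 and 0.223, edgeR) with overlapping groups. Cct2 had 906, 789, 798 and 881 CPM in the Neat1 null libraries, against 4039, 511, 793 and 497 CPM in the wild-type libraries. The single high value of wild-type library 1 set its log2 fold change of -0.79 (SE 0.614, edgeR adjusted p = 0.364), which was 0.50 without that library. Cct6b, a copy of Cct6a known from testis, averaged 0.667 ± 0.375 CPM in Neat1 null and 0.585 ± 0.264 CPM in wild-type libraries, and the related Cct8l1 was not tested. The summed TRiC level was 11293, 5709, 6754 and 5819 CPM in Neat1 null libraries 1 to 4 and 8141, 3131, 2866 and 2665 CPM in wild-type libraries 1 to 4. Library 1 was the highest of its group in both genotypes, and wild-type library 1 reached into the Neat1 null range. In TPM the order of the means was the other way round, with 4681 in Neat1 null and 5617 in wild-type libraries. Wild-type library 1 had 10564 TPM. The other wild-type libraries, at 3797 to 4266 TPM, lay below the Neat1 null mean, so this order rested on wild-type library 1. The median log2 fold change of the list was 0.86, and its difference from all genes was 0.92, between 0.85 and 1.16 over the 19 alternative fits.

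**Figure D2:**
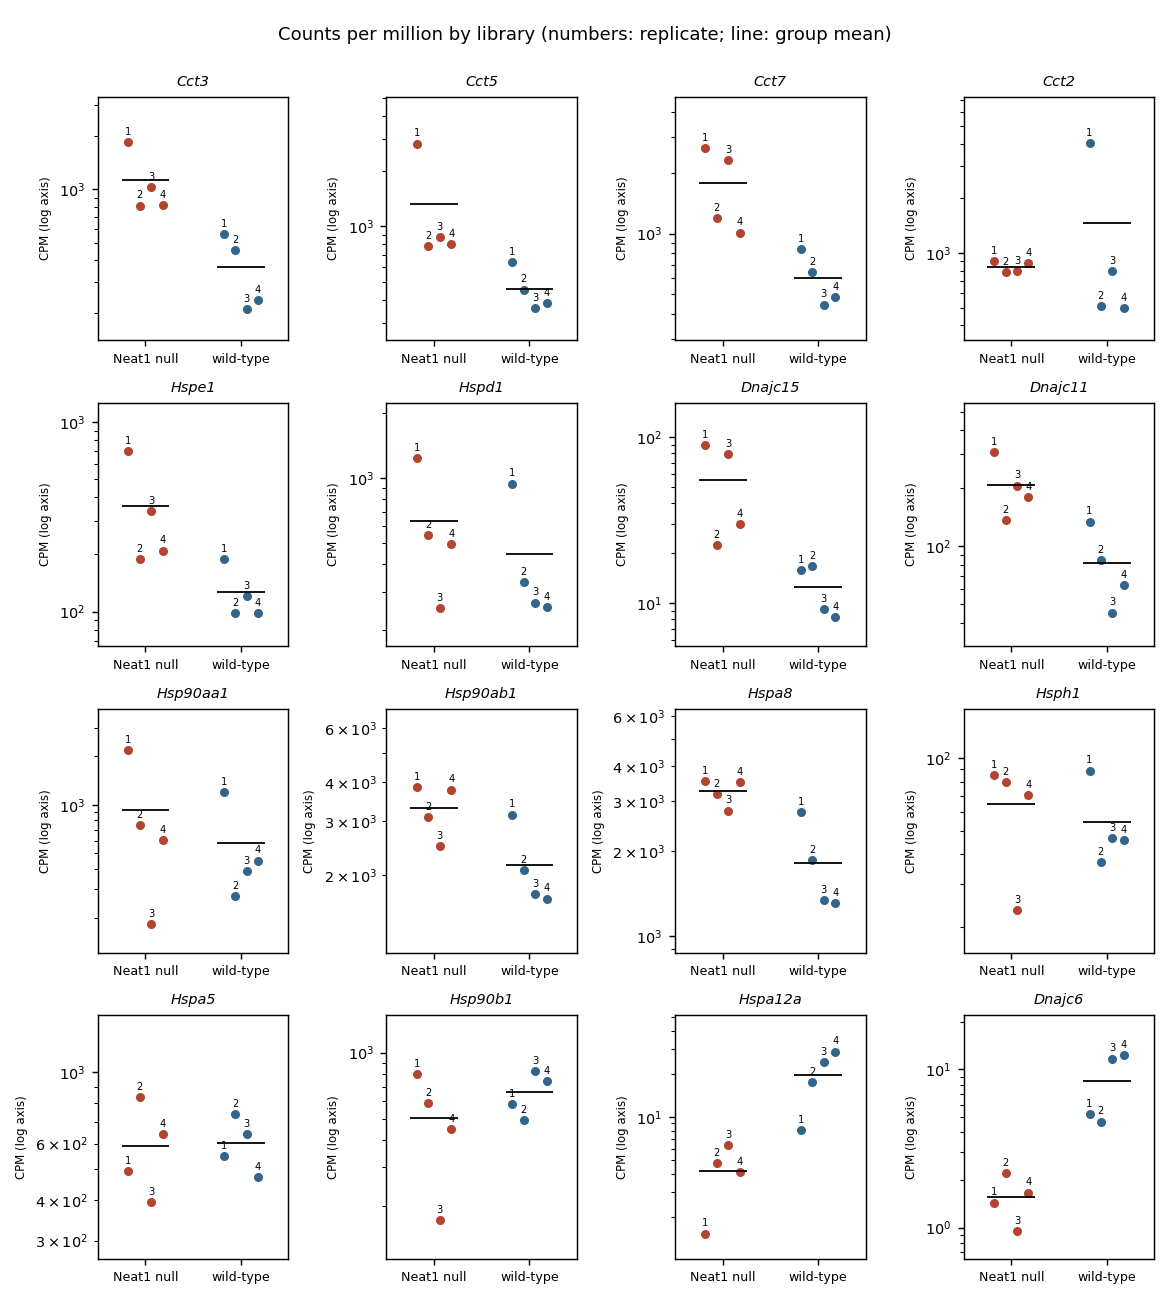
CPM (log axis) of 16 chaperone genes in each library, Neat1 null on the left and wild-type on the right of each panel; numbers are replicate numbers and lines are group means. Cct3, Cct5, Cct7, Hspe1, Dnajc15 and Dnajc11 lie higher in all Neat1 null libraries, Hspa12a and Dnajc6 lie lower in all of them, and Cct2 shows the single high wild-type library 1.

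Among mitochondrial chaperones 3 of 9 genes rose and 0 fell. Dnajc15, a J protein of the inner membrane tied to protein import and known as a brake on respiratory complex I (chromosome 14, 77820681 to 77875125, minus strand), had 89.6, 22.4, 79.5 and 30.03 CPM in the Neat1 null libraries, against 15.8, 16.7, 9.23 and 8.20 CPM in the wild-type libraries. Libraries 1 and 3 held the highest Neat1 null values, the groups did not overlap, and the log2 fold change was 2.15 (SE 0.470, edgeR adjusted p = 0.0181). Hspe1, the Hsp10 lid of the mitochondrial chaperonin (chromosome 1, 55088132 to 55091307, plus strand), had 702, 189.6, 337 and 209.8 CPM in the Neat1 null libraries, against 189, 98.1, 120.5 and 98.4 CPM in the wild-type libraries. Its lowest Neat1 null value was just above its highest wild-type value, and the log2 fold change was 1.51 (SE 0.456, edgeR adjusted p = 0.0361), which became 0.96 without Neat1 null library 1. As 18.4% of the 50-base stretches of Hspe1 recur in other annotated transcripts, mainly its pseudogenes, its counts are uncertain. Dnajc11, a J protein found with the cristae-organizing complex (chromosome 4, 151933691 to 151982137, plus strand), had 309, 136, 206 and 179 CPM in the Neat1 null libraries, against 134, 84.2, 45.1 and 62.5 CPM in the wild-type libraries. Again the groups did not overlap, by a small gap, and its log2 fold change was 1.35 (SE 0.410, edgeR adjusted p = 0.0365).

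The core mitochondrial folding machines did not pass. Hspd1 (Hsp60), the chaperonin that Hspe1 caps, had 1235, 548, 252 and 497 CPM in the Neat1 null libraries, against 943, 332, 267 and 256 CPM in the wild-type libraries. Its groups overlapped fully, library 1 was the highest of each group, and the log2 fold change was 0.49 (SE 0.543, edgeR adjusted p = 0.532). Of its 50-base stretches 39.7% recur elsewhere, so its counts are uncertain too. The ratio of Hspe1 to Hspd1 counts was 0.568, 0.346, 1.34 and 0.422 in the Neat1 null libraries and 0.201, 0.295, 0.452 and 0.385 in the wild-type libraries. The groups overlap in this ratio, and Neat1 null library 3 holds the highest value. Hspa9 (mortalin), the Hsp70 of the matrix and of the import motor, had 918, 911, 369 and 695 CPM in the Neat1 null libraries, against 856, 674, 378 and 317 CPM in the wild-type libraries, with a log2 fold change of 0.38 (SE 0.448, edgeR adjusted p = 0.564). Dnajc30 lay higher in every Neat1 null library at a log2 fold change of 1.10 (SE 0.377, edgeR adjusted p = 0.0546), just short of the threshold, and Dnajc28 lay lower in every one at -1.22 (SE 0.437, edgeR adjusted p = 0.0640). The median of the list was 1.07. Its difference from all genes was 1.13. This depended on 1 library, being 0.48 without Neat1 null library 1, and it was also 0.48 with the length and GC correction.

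Cytosolic Hsp70 and Hsp110 genes held no called rise and 2 of the 4 called falls among 11 tested genes. Hspa8, which folds new proteins and uncoats clathrin, had 3535, 3184, 2783 and 3509 CPM in the Neat1 null libraries, against 2755, 1863, 1342 and 1313 CPM in the wild-type libraries. The groups did not overlap, but wild-type library 1 came close to the lowest Neat1 null library, and the log2 fold change of 0.84 (SE 0.439, edgeR adjusted p = 0.180) did not pass. Counts of Hspa8 are uncertain, with 38.6% of its 50-base stretches found in pseudogenes and other gene models. The heat-inducible Hspa1a had 4.85, 4.75, 3.63 and 6.84 CPM in the Neat1 null libraries, against 2.55, 6.56, 3.71 and 4.89 CPM in the wild-type libraries, and Hspa1b had 21.4, 14.6, 4.62 and 17.9 CPM in the Neat1 null libraries, against 14.00, 19.1, 8.34 and 8.62 CPM in the wild-type libraries. Both genes were low in every library with overlapping groups, at log2 fold changes of 0.18 and 0.22 (adjusted p = 0.795 and 0.753, edgeR). As 60.3% of the 50-base stretches of Hspa1a and 62.3% of those of Hspa1b also occur in other genes, mainly each other, their counts are uncertain.

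Hsph1 (Hsp105), a heat-inducible Hsp110 that exchanges nucleotide on Hsp70, had 84.98, 79.8, 23.5 and 70.5 CPM in the Neat1 null libraries, against 88.9, 36.96, 46.5 and 45.6 CPM in the wild-type libraries. Neat1 null library 3 was the lowest of all 8, wild-type library 1 the highest, and the log2 fold change was 0.25 (SE 0.422, edgeR adjusted p = 0.696). Hspa12a, a divergent member of the Hsp70 family (chromosome 19, 58795750 to 58943654, minus strand), had 1.53, 4.75, 6.35 and 4.11 CPM in the Neat1 null libraries, against 8.06, 17.4, 24.1 and 28.7 CPM in the wild-type libraries. All Neat1 null values were below all wild-type values, and it fell by 2.21 on the log2 scale (SE 0.497, edgeR adjusted p = 0.0185). Hspa4l, an Hsp110 relative (chromosome 3, 40744495 to 40796103, plus strand), had 14.2, 38.2, 10.4 and 20.3 CPM in the Neat1 null libraries, against 37.96, 34.7, 74.1 and 82.7 CPM in the wild-type libraries. Neat1 null library 2 reached the wild-type range, and the log2 fold change was -1.46 (SE 0.446, edgeR adjusted p = 0.0368). The other 5 genes of the list had log2 fold changes between -0.25 and 0.61, and the list median was 0.19.

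Neither cytosolic Hsp90 gene passed the test, and 0 of the 2 had an unadjusted p under 0.05 in edgeR or a call by DESeq2. The heat-inducible Hsp90aa1 had 2181, 749, 182 and 602 CPM in the Neat1 null libraries, against 1196, 271, 388 and 451 CPM in the wild-type libraries. The Neat1 null values spanned the whole wild-type range, with library 1 highest and library 3 lowest, and the log2 fold change of 0.69 (SE 0.647, edgeR adjusted p = 0.460) became -0.15 without Neat1 null library 1. The constitutive Hsp90ab1 had 3859, 3082, 2477 and 3789 CPM in the Neat1 null libraries, against 3143, 2069.6, 1726 and 1673 CPM in the wild-type libraries. Here the values were tighter, wild-type library 1 overlapped the Neat1 null group, and the log2 fold change was 0.62 (SE 0.438, edgeR adjusted p = 0.321). Part of the Hsp90aa1 counts may belong to pseudogenes, since 47.5% of its 50-base stretches recur in other annotated transcripts.

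Of the small heat shock proteins 4 of 7 genes were tested and 0 were called in the edgeR fit used throughout, with 1 (Hspb1) at an unadjusted p under 0.05 and called by DESeq2 (adjusted p = 0.0249). Hspb1 (Hsp25 in mouse), which also binds actin, had 67.2, 32.7, 60.7 and 32.4 CPM in the Neat1 null libraries, against 14.3, 4.88, 38.8 and 13.2 CPM in the wild-type libraries. Wild-type library 3 overlapped the Neat1 null group, and the log2 fold change was 1.44 (SE 0.516, edgeR adjusted p = 0.0639). Without that library it was 2.16 and with the length and GC correction 0.41, both still not called (adjusted p = 0.0606 and 0.588, edgeR). It was called with no low-count filter, at 1.46 (edgeR adjusted p = 0.0460), and with the replicate block, at 1.73 (edgeR adjusted p = 0.00968). The pseudogene Hsp25-ps1 shares 48.8% of the 50-base stretches of Hspb1. Hspb8, a partner of the co-chaperone Bag3, had a log2 fold change of 0.65 (SE 0.389, edgeR adjusted p = 0.237), and Hspb6 had -0.09 (SE 0.513, edgeR adjusted p = 0.910). Hspb9 averaged 0.690 ± 0.141 CPM in Neat1 null and 0.318 ± 0.266 CPM in wild-type libraries, and was called only without wild-type library 1 among the fits run, at 1.88 (edgeR adjusted p = 0.0482). It was near the detection limit, with 70 counts over the Neat1 null and 51 over the wild-type libraries. It passed the count filter through 4 Neat1 null libraries and 1 wild-type library. The list median was 0.88, and 0.63 with the filter of at least 1 CPM in 4 libraries, which Hspb9 does not reach. Hspb2, Hspb3 and Hspb7, known from muscle and heart, were not tested.

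The ER chaperones showed no call in either direction among 13 tested genes, where 17.7% of all genes tested were called. DESeq2 also called 0 of them, and 0 had an unadjusted p under 0.05 in edgeR in either direction, against 18.6% of all genes higher and 17.3% lower. These counts hold for the genes as placed. Dnajc14, a J protein with more than 1 reported location, was kept in the cytosolic and nuclear list (edgeR unadjusted p = 0.0384, lower). With the length and GC correction 1 ER gene, the J protein gene Dnajb14, was called higher, at 1.46 (edgeR adjusted p = 0.0472), against 0.41 (SE 0.380, edgeR adjusted p = 0.453) without the correction. Hspa5 had 494, 836, 395 and 641 CPM in the Neat1 null libraries, against 549.9, 739, 643 and 472 CPM in the wild-type libraries. The groups overlapped and the log2 fold change was -0.02 (SE 0.388, edgeR adjusted p = 0.970). Hsp90b1 had 799, 587, 172 and 447 CPM in the Neat1 null libraries, against 579.9, 493, 824 and 743 CPM in the wild-type libraries. Neat1 null library 3 was the lowest, library 1 lay within the wild-type range, and the log2 fold change was -0.40 (SE 0.456, edgeR adjusted p = 0.551). The highest log2 fold change of the list was that of Dnajb11, a J protein that works with Hspa5, at 0.51 (SE 0.351, edgeR adjusted p = 0.302). The lowest was that of Dnajb9, a J protein that also restrains the stress sensor Ire1, at -0.82 (SE 0.498, edgeR adjusted p = 0.242).

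The summed ER level was 1878, 2039.5, 911 and 1627 CPM in Neat1 null libraries 1 to 4 and 1716, 1757, 2079 and 1809.7 CPM in wild-type libraries 1 to 4. In TPM the means lay farther apart, at 861 in Neat1 null and 1738 in wild-type libraries. Neat1 null library 3 was the lowest for 10 of the 13 genes within its group, and for 55.4% of all members against 35.3% of all genes. The list median of -0.18 differed by -0.12 from that of all genes, and by between -0.18 and 0.09 over the alternative fits, so its sign was not fixed. The difference between compartments was not tested.

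Cytosolic and nuclear J proteins, which bring substrates to Hsp70 and start its ATP hydrolysis, gave 2 rises and 2 falls among 22 tested genes. The general co-chaperones did not pass: Dnaja1 had 117, 131, 39.7 and 97.95 CPM in the Neat1 null libraries, against 147, 65.4, 67.7 and 60.2 CPM in the wild-type libraries, with a log2 fold change of 0.18 (SE 0.422, edgeR adjusted p = 0.783). The heat-inducible Dnajb1 (Hsp40) had 81.4, 71.2, 86.99 and 86.4 CPM in the Neat1 null libraries, against 75.7, 55.03, 39.5 and 39.5 CPM in the wild-type libraries. Its Neat1 null values were close together, wild-type library 1 lay among them, and the log2 fold change was 0.64 (SE 0.331, edgeR adjusted p = 0.177). Dnajc17, a nuclear J protein linked to splicing (chromosome 2, 119172500 to 119208795, minus strand), had 183, 13.6, 24.98 and 12.2 CPM in the Neat1 null libraries, against 11.2, 9.21, 7.08 and 6.28 CPM in the wild-type libraries. A single library carried most of this rise, since the log2 fold change of 2.78 (SE 0.826, edgeR adjusted p = 0.0412) became 1.00 without Neat1 null library 1, and 13.9% of its 50-base stretches recur in another gene model, Gm6257. Dnajb3, a J protein of the male germ line (chromosome 1, 88204732 to 88205782, minus strand), had 0.359, 0.763, 0.600 and 1.29 CPM in the Neat1 null libraries, against 0.318, 0, 0.140 and 0.0243 CPM in the wild-type libraries. It was near the detection limit, with 88 counts over the Neat1 null and 19 over the wild-type libraries. Its log2 fold change was 2.66 (SE 0.879, edgeR adjusted p = 0.0482), and it passed the count filter through 3 Neat1 null libraries and 1 wild-type library.

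Dnajc6 (auxilin), which brings Hsp70 to clathrin coats and is known from neurons (chromosome 4, 101496648 to 101642799, plus strand), had 1.44, 2.20, 0.952 and 1.66 CPM in the Neat1 null libraries, against 5.25, 4.68, 11.7 and 12.3 CPM in the wild-type libraries. It was low in both genotypes and lower in every Neat1 null library, and fell by 2.43 on the log2 scale (SE 0.511, edgeR adjusted p = 0.0180). Dnajb4 (chromosome 3, 152178511 to 152210302, minus strand), a heat-inducible relative of Dnajb1, had 9.70, 19.01, 4.06 and 12.1 CPM in the Neat1 null libraries, against 18.3, 21.6, 36.96 and 39.8 CPM in the wild-type libraries. Neat1 null library 2 overlapped the wild-type group, and the log2 fold change was -1.38 (SE 0.454, edgeR adjusted p = 0.0480). Dnajc14, which has more than 1 reported location, lay lower in every Neat1 null library without passing, at -0.72 (SE 0.319, edgeR adjusted p = 0.118). The remaining J proteins of the list had log2 fold changes between -0.58 and 0.91, and the list median was 0.32.

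Hsf1, the master regulator of the heat shock response, had 54.2, 53.7, 133 and 80.5 CPM in the Neat1 null libraries, against 68.3, 56.9, 56.8 and 55.7 CPM in the wild-type libraries. Neat1 null library 3 was the highest, libraries 1 and 2 lay just under the wild-type values, and the log2 fold change was 0.43 (SE 0.358, edgeR adjusted p = 0.396). The mRNA level says nothing of the activity of Hsf1, which is set by trimer formation and phosphorylation. Hspb11, Dnajc4 and Dnajc22, which were placed in no compartment, had log2 fold changes of -0.69, 0.22 and -0.26 and were not called.

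Read by inducibility, constitutive cytosolic chaperones lay farther above the median of all genes than heat-inducible ones, and ER-stress-inducible ones lay below it, except without Neat1 null libraries 1 and 3 and with the length and GC correction. Of 15 constitutive cytosolic genes 3 rose and 0 fell, and their median was 0.75 on the log2 scale. The 3 were the TRiC genes named above. This class also holds the TRiC genes Tcp1, Cct2, Cct4, Cct6a and Cct8, so its median is not independent of the TRiC median. Its other members had log2 fold changes of -0.18 (Hspa2), 0.29 (Hspa4), 0.35 (Dnaja2), 0.61 (Hspa14), 0.62 (Hsp90ab1), 0.69 (Dnajc7) and 0.84 (Hspa8). They were not called. Of 12 heat-inducible genes 1 rose (Hspe1) and 2 fell (Hspa4l and Dnajb4), with a median of 0.37. Of 7 ER-stress-inducible genes 0 were called, with a median of -0.28. Relative to all genes the median was 0.81 for the constitutive, 0.43 for the heat-inducible and -0.22 for the ER-stress-inducible class. Over the alternative fits it ran, class by class, from 0.64 to 1.04, from 0.20 to 0.75 and from -0.38 to 0.09. The difference between the classes was not tested.

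The summed heat-inducible level spread widely within each genotype. It was 4543, 1902, 1029 and 1697 CPM in Neat1 null libraries 1 to 4 and 2759, 959, 1103 and 1118 CPM in wild-type libraries 1 to 4. Library 1 was the highest of its group in both, and Neat1 null library 3 lay among the lower wild-type values. In TPM the mean sum was lower in Neat1 null libraries, at 1681 against 1897 in wild-type libraries. The same held in TPM for the mitochondrial list (1629 against 1825) and the constitutive list (9654 against 11170). Wild-type library 1 had 3156 TPM for the heat-inducible, 2780 for the mitochondrial and 18001 for the constitutive list. The other wild-type libraries reached at most 1663, 1702 and 9133 TPM, so the order of these means rested on wild-type library 1. Neat1 null library 1 held the highest Neat1 null value for 37 of the 74 tested members and wild-type library 1 the highest wild-type value for 41. That is 50% and 55.4% of them, against 29.6% and 37.3% of all genes. The labels do not say whether the libraries that share number 1 came from 1 preparation. Across the genotypes each was the best match of the other by correlation (0.317), unlike libraries sharing another number. Libraries of unlike number were best matches of each other too: Neat1 null library 2 with wild-type library 3, and Neat1 null library 3 with wild-type library 2. A shared preparation was not tested. The ER-stress-inducible sum did not follow this order, with 1676, 1858, 775 and 1434 CPM in Neat1 null and 1509, 1541, 1857 and 1599 CPM in wild-type libraries.

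**Figure D3:**
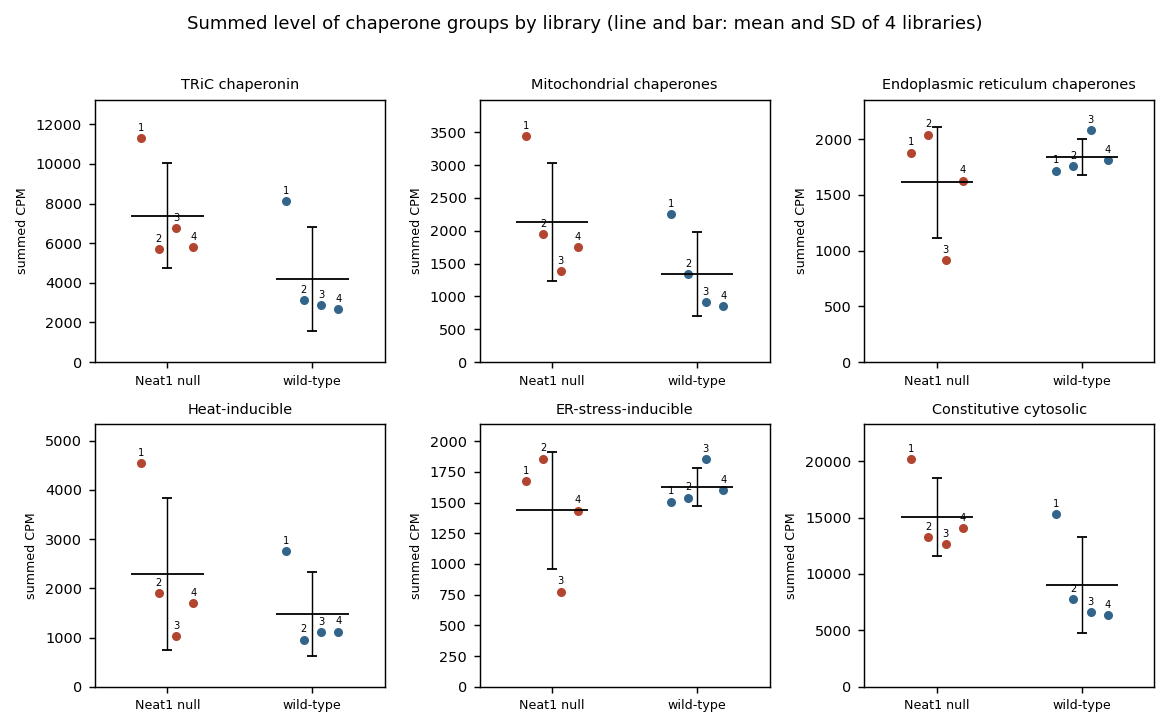
Summed CPM of 6 chaperone lists in each library, Neat1 null left and wild-type right in each panel, with numbers for replicates and lines and bars for the mean and SD of 4 libraries. Library 1 is the highest of its group in the TRiC, mitochondrial, heat-inducible and constitutive lists, and the 2 ER lists overlap between the genotypes.

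The 9 members that were not tested were Hspb2, Hspb3, Hspb7, Cct8l1, Dnajb7, Dnajb8, Dnajb13, Dnajc5b and Dnajc5g, mostly known from muscle, heart or testis. Their total counts over the 8 libraries were 0 to 44, and the highest value in any library was 0.373 CPM. Dnajc5g had 0 counts in every library, which allows a level of up to 0.0880 to 0.269 CPM in Neat1 null and 0.0663 to 0.0795 CPM in wild-type libraries at 3 counts per library (counting error only).

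Partners of these machines that the symbol rule does not take in were listed separately, with earlier results of these data known. Of 52 such genes tested 11 rose and 0 fell, that is 21.2% and 0%, where 9.97% of all genes were called higher and 7.72% lower. The median of all 52 was 0.48 on the log2 scale. Hspbp1, an exchange factor of Hsp70, had 399, 85.1, 243 and 98.8 CPM in the Neat1 null libraries, against 68.98, 48.2, 22.2 and 31.1 CPM in the wild-type libraries, a log2 fold change of 2.28 (SE 0.524, edgeR adjusted p = 0.0186). Clpp, the matrix protease, had 819, 85.01, 182 and 108 CPM in the Neat1 null libraries, against 68.1, 52.5, 32.6 and 28.8 CPM in the wild-type libraries, a log2 fold change of 2.71 (SE 0.657, edgeR adjusted p = 0.0200) that was 1.46 without Neat1 null library 1. In both genes Neat1 null libraries 1 and 3 were highest and the groups did not overlap. Pfdn4, a subunit of prefoldin, which hands actin and tubulin to TRiC, had a log2 fold change of 1.70 (SE 0.431, edgeR adjusted p = 0.0216). Grpel1, the exchange factor of Hspa9, had 1.30 (SE 0.359, edgeR adjusted p = 0.0267). With the length and GC correction Hspbp1 and Clpp were no longer called, at 1.43 and 1.53 (adjusted p = 0.0643 and 0.0873, edgeR). Calls of the partners also ended in some fits with 1 library left out. Without Neat1 null library 3, wild-type library 3 or wild-type library 4, 0 partners were called by edgeR, against 0.095%, 0.135% and 0.082% of all genes. Without Neat1 null library 1 there were 6 higher, where 12.1% of all genes were called in either direction. Without wild-type library 2 there were 4 higher and 1 lower, where 12.9% of all genes were called. The length and GC correction left 5 higher (8.6% of all genes called in either direction). Library sizes alone left 2 higher and 1 lower (2.92% and 16.1% of all genes). DESeq2 called 15 higher, where it called 26.1% of all genes in either direction. At an unadjusted p under 0.05 in edgeR, 20 partners were higher and 1 lower in the fit over all libraries, against 18.6% and 17.3% of all genes.

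The calls of the 12 members all ended in some fits with 1 library left out, while their signs did not change in any of the fits run. Sizes moved unequally in those fits. Dnajc6 kept a log2 fold change between -2.63 and -2.20, whereas that of Dnajc17 ran from 1.00 to 3.14. Without Neat1 null library 3, wild-type library 3 or wild-type library 4, 0 of 74 members were called (lowest adjusted p = 0.0646, 0.0606 and 0.0684, edgeR), where 13, 18 and 11 of all genes were called, that is 0.095%, 0.135% and 0.082%. At an unadjusted p under 0.05 in edgeR these fits had 17, 10 and 10 members higher and 7, 5 and 4 lower. The share of all genes at this level was not counted in these fits. In the fit over all libraries 13 members were higher and 6 lower, where 18.6% of all genes were higher and 17.3% lower. Without Neat1 null library 1 the 4 calls of Cct7, Dnajc15, Dnajc6 and Hspa12a held, and without wild-type library 2 those of Dnajc15, Dnajc6, Hspa12a and Hspa4l. Without Neat1 null library 4 those of Dnajb3, Hspa4l and Dnajb4 ended. Dnajb3 also lost its call without Neat1 null library 2, and Dnajc17 without wild-type library 1. DESeq2 called 17 members, 11 of them among the 12, where it called 26.1% of all genes. The members it added were Hspa8, Tcp1, Hspb1, Dnajc9, Dnajc28 and Dnajc30.

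Transcript length moved with these results. The tested members had a median length of 3014 bases against 3414 bases for all genes tested, the 8 that rose had 2594 and the 4 that fell 5528 bases. TRiC, mitochondrial and ER genes had 2454, 2648 and 4042 bases. Among the 37 shorter members 4 rose and 0 fell (median log2 fold change 0.49), and among the 37 longer ones 4 rose and 4 fell (median 0.12). With each library corrected for length and GC content, 8 members were called where 8.6% of all genes were, and 5 of the 12 remained: Cct3, Cct7, Dnajc11, Dnajc15 and Dnajc6. The call of Cct5 ended at a log2 fold change of 1.12, that of Hspe1 at 0.86, that of Dnajc17 at 1.61, that of Dnajb3 at 1.97, that of Hspa12a at -1.60, that of Dnajb4 at -0.84 and that of Hspa4l at -0.39. The 3 members called only then were Tcp1 at 1.35 (edgeR adjusted p = 0.0447), the ER gene Dnajb14 at 1.46 (edgeR adjusted p = 0.0472) and Dnajc5, a J protein of secretory vesicles, at 1.03 (edgeR adjusted p = 0.0462). The TRiC median stayed 0.87 above all genes, from 0.92 without the correction. That of the small heat shock proteins went from 0.94 to 0.06. That of the cytosolic Hsp70 and Hsp110 genes went from 0.25 to -0.00078.

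**Figure D4:**
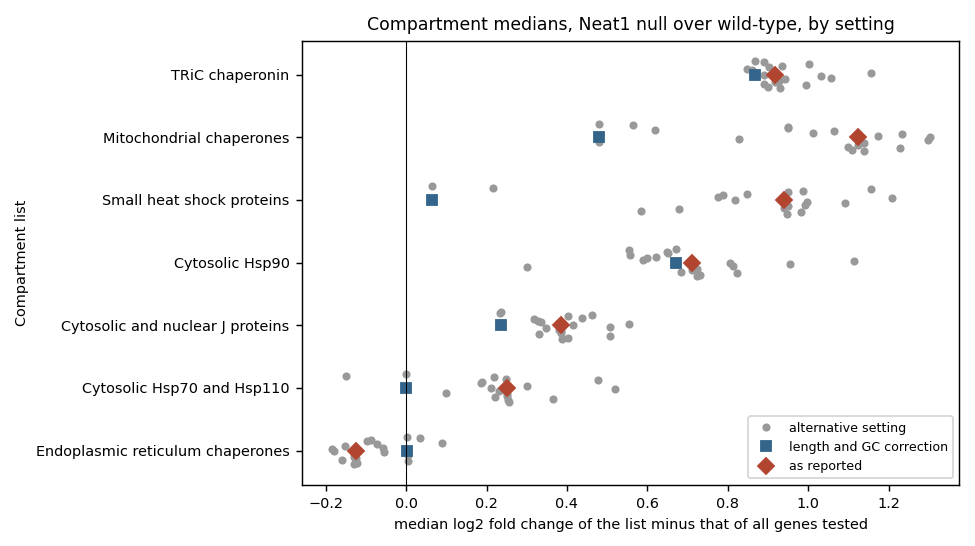
Median log2 fold change of each compartment list minus that of all genes tested (horizontal axis), under TMM scaling (red diamonds), with the length and GC correction (blue squares) and under each other alternative fit (grey points). TRiC stays between 0.85 and 1.16 in all of them, the mitochondrial list between 0.48 and 1.30, and the ER list lies on both sides of 0.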

How the data were processed

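Each library had its own deposited table of raw counts by gene symbol, and the authors' counts were taken unchanged. CASAVA 1.8, STAR, DESeq2 and mm10 are named, with no roles, in the submitters' processing notes. Per the labels' protocols the libraries were made with a stranded kit. How reads were counted, with which strand setting and annotation, was not given in the sources used here, so reads of overlapping genes on opposite strands (such as Hspe1 and Hspd1) may not be separated. Entries of each file that name no gene, reads outside genes (5.48 to 11.04% of counts in Neat1 null and 9.83 to 15.7% in wild-type libraries) and ambiguous reads (1.34 to 1.76% in Neat1 null and 1.09 to 1.22% in wild-type libraries), were left out of library sizes and tests.

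Genes were kept with filterByExpr (minimum count 10), scaled with TMM factors and tested in 1 fit over all genes with the quasi-likelihood F test of edgeR 4.0.16 in R 4.3.3 (robust, genotype as the only term, 2-sided), with Benjamini-Hochberg adjustment over the 13316 genes and a threshold of 0.05. The SE is the size of the log2 fold change divided by the square root of F. CPM and TPM were computed from the deposited counts, TPM with the longest coding transcript of GENCODE M21 (GRCm38, the same assembly as mm10), where 98.5% of symbols matched. Pairs of libraries within a group differed far beyond sampling noise (lowest chi-square over its degrees of freedom 62.1), so none was counted as a repeat. The scripts were tested on simulated data.

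The members, the lists by compartment and inducibility and the list of partners were chosen with earlier results of these data known. Named genes were 16 defining members and Neat1, each called member, the extremes of each compartment and the 4 partners with the smallest p among those called. Cct4, Cct6a, Cct6b, Cct8, Cct8l1, Hspb8, Hspb9, Hspb11, Dnajc3, Dnajc4, Dnajb14, Dnajc5, Dnajc9, Dnajc14, Dnajc22 and Dnajc30 and the untested members were named beside these after their values were seen. Alternatives were RLE and upper-quartile factors, no low-count filter, at least 1 CPM in 4 libraries, the non-robust fit, DESeq2 1.42.0, leaving out each library, Neat1 null libraries 1 and 3 left out, the replicate number as a block, a correction of each library for length and GC content (splines of 5 degrees of freedom, as offsets), both together, and a threshold of 0.01. The fit with library sizes alone was chosen after the data were seen.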

Additional observations from a re-analysis of the deposited data

Results flagged for a closer look

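Among the 37 named genes, a library that stood far from the other 3 of its group on the log2(CPM + 0.5) scale was found in 5 of 74 groups of 4 libraries, where chance gives about 1 in 20. In 4 of the 5 the library was number 1 of its group. Cct5 had 2825 CPM in Neat1 null library 1, against 780.3 to 871 CPM in the other Neat1 null libraries. Tcp1 had 575 CPM in wild-type library 1, against 325 to 338 CPM in the other wild-type libraries. Dnaja1 had 147 CPM in wild-type library 1, against 60.2 to 67.7 CPM in the others. Hsf1 had 68.3 CPM in wild-type library 1, against 55.7 to 56.9 CPM in the others, a small difference beside a narrow range. Hsph1 had 23.5 CPM in Neat1 null library 3, against 70.5 to 85.0 CPM in the other Neat1 null libraries. Without wild-type library 1 the log2 fold changes of Tcp1 and Dnaja1 were 1.12 and 0.59, neither called.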

How the results depend on the processing

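All 12 called members kept their sign in each alternative fit that tested them (11 with the filter of at least 1 CPM in 4 libraries). With any 1 library left out, called members ran from 0 to 10 higher and from 0 to 5 lower, and their median log2 fold change from 0.19 to 0.51. The number of genes called, Neat1 null against wild-type, ran from 11 to 2965, genes called higher from 1 to 1708 and genes called lower from 6 to 1388. Without Neat1 null libraries 1 and 3 there were 7 calls (5 higher, 2 lower), 0 of them members in either direction, and Neat1 had -6.34 (edgeR adjusted p = 0.0899). A threshold of 0.01 left 7 calls (1 higher, 6 lower), 0 members in either direction. The length and GC correction left 1145 calls (666 higher, 479 lower), with 1 member lower. With library sizes alone there were 389 calls higher and 2142 lower, 2 members higher and 7 lower, and a member median of -0.24. Libraries of equal replicate number had correlations of 0.317, -0.258, -0.0140 and 0.107 for numbers 1 to 4. Of equal numbers, only for number 1 was each library the best match of the other across the genotypes. Neat1 null library 2 and wild-type library 3 were also best matches of each other, as were Neat1 null library 3 and wild-type library 2. With the replicate block 12 members were called, without Cct5 and with Hspb1, and with the block and the correction 9, 2 of them lower.

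Genes not called changed sign as follows. Hspa5 had 0.021 with RLE factors and 0.021 with DESeq2, -0.22 to 0.14 with 1 library left out, 0.29 without Neat1 null libraries 1 and 3, 0.25 with the correction and 0.27 with block and correction. Leaving out 1 library gave -0.0065 to 0.44 for Hspa1a, -0.0090 to 0.53 for Hspa1b, -0.15 to 1.34 for Hsp90aa1, -0.038 to 1.16 for Hspd1, -0.71 to 0.19 for Hspb6 and -1.08 to 0.50 for Cct2. Hspa1a had -0.0094 with upper-quartile factors and Hspa1b -0.091 with block and correction. With library sizes alone Dnaja1 had -0.29, Dnajb11 -0.0855, Hsf1 -0.13, Hspa1a -0.34, Hspa1b -0.31, Hspa9 -0.12, Hspd1 -0.10 and Hsph1 -0.25. DESeq2 gave no adjusted p for Dnajc17 and Cct2. The cause of these changes was not tested. With 4 libraries a group and this spread, changes of the size of Hspa8 were not called by edgeR. A p that misses the threshold does not show that the genotypes were alike.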

Other observations

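Beyond the 4 partner genes with the smallest p, the other 7 partners that rose in Neat1 null libraries are named here after their values were seen. Of the Hsp90 co-chaperones, Cdc37, which brings kinases to Hsp90, had a log2 fold change of 1.71 (SE 0.472, edgeR adjusted p = 0.0267), Fkbp4, which acts with steroid receptors, had 1.51 (SE 0.454, edgeR adjusted p = 0.0348), Ahsa1, which activates the Hsp90 ATPase, had 1.26 (SE 0.392, edgeR adjusted p = 0.0394) and Unc45a, a chaperone of myosin, had 1.25 (SE 0.4004, edgeR adjusted p = 0.0432). Cdc37 had 1803, 474, 1207 and 617 CPM in the Neat1 null libraries, against 398, 355, 236 and 265 CPM in the wild-type libraries. Stip1 (Hop), which links Hsp70 to Hsp90, lay higher in every Neat1 null library without passing, at 0.91 (SE 0.394, edgeR adjusted p = 0.112), and Ptges3 (p23) had -0.08 (SE 0.419, edgeR adjusted p = 0.906). The prefoldin genes Pfdn5 and Pfdn1 had 2.07 (SE 0.626, edgeR adjusted p = 0.0363) and 1.43 (SE 0.439, edgeR adjusted p = 0.0376), and Bag1, an exchange factor of Hsp70, had 2.15 (SE 0.609, edgeR adjusted p = 0.0293). For each of these 7 the groups did not overlap, which was so for 11.7% of all genes in this direction. The gap was very small for Pfdn5, between 126.8 CPM in Neat1 null library 2 and 126.5 CPM in wild-type library 2. Neat1 null library 1 stood far above the other Neat1 null libraries for Pfdn5 (1259 CPM against 127 to 384 CPM). The same held for Bag1 (983 CPM against 138 to 179 CPM).

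The ER partners of the list were not called. Calr, a lectin chaperone, lay higher in every Neat1 null library at 1.13 (SE 0.404, edgeR adjusted p = 0.0627), and Canx, its membrane-bound relative, had -0.34 (SE 0.371, edgeR adjusted p = 0.530). Pdia4, a disulphide isomerase, lay lower in every Neat1 null library at -0.83 (SE 0.339, edgeR adjusted p = 0.0965), whereas Pdia3 and Pdia6 had log2 fold changes of 0.26 and 0.40 with overlapping groups. Hyou1, the large Hsp70 relative of the ER, had -0.06. Bag3, a co-chaperone known to be raised by Hsf1, had 0.40 (SE 0.320, edgeR adjusted p = 0.385), and Hsf2 had -0.39 (SE 0.378, edgeR adjusted p = 0.474). The part of the length and composition differences between libraries in these values was not tested.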
